A study of Mus musculus with 6 samples.

Results

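The 10 collagen genes described here were measured in Melan-a cells, an established line of pigment-forming mouse melanocytes: Col3a1, Col5a1, Col5a2 and Col27a1 of the fibril-forming class, Col4a3 and Col4a4 of basement membranes, Col6a3 of beaded filaments, Col9a2 and Col16a1 of the fibril-associated class, and Col15a1 of the multiplexins. The 10 genes were taken by symbol, each as the probe set that carried that symbol alone, out of 7486 genes with such a probe set, and every member had exactly 1. The cells, of female C57BL/6 origin and from a single established line grown with a phorbol ester (TPA), had been transfected either with siDicer, a small interfering RNA directed at the microRNA-processing enzyme Dicer, or with the control siScr. RNA was taken 24 hours later and hybridised to mouse Clariom D arrays, 3 per group, 1 from each of passages 47, 54 and 56. Replicates 1, 2 and 3 of both groups are these passages in that order, and values below are listed in it. Dicer1 itself was not analysed here, so the groups rest on their labels.

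Collagens are triple-helical proteins of the extracellular matrix. Their chains are hydroxylated on proline and lysine and folded in the endoplasmic reticulum, exported as procollagen, and then trimmed, assembled and crosslinked outside the cell. Fibrillar collagens are made mostly by fibroblasts, osteoblasts and chondrocytes, while in skin the melanocytes sit on a basement membrane that neighbouring cells help to build. The microRNA-29 family is known to target many collagen messages in mouse and human. The 4 microRNA-29 genes were listed for this comparison, but none of them was measured here, and neither were mature microRNAs.

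The promoters of the members did not look alike. RefSeq promoter sequences (GRCm38.p6, 250 bases before to 50 after the annotated start) were matched for 8 of the 10 members, Col5a2 and Col4a3 being the others. The windows of Col5a1 and Col3a1 are shown because these genes ran together across the arrays, and that of Col4a4 because it contains position 82586921 of chromosome 1, the lower end of Col4a3 in the RefSeq gene table. Col4a3 and Col4a4 are known to share a bidirectional promoter. CG dinucleotides are in capitals.
Col5a1, chr2:27886175-27886474, plus strand: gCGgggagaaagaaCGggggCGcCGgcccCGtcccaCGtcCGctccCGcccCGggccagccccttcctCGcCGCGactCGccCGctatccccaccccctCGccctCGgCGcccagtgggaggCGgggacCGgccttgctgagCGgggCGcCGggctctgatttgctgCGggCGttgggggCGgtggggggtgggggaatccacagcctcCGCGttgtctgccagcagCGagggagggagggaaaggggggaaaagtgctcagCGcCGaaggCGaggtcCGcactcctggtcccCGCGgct
Col3a1, chr1:45311288-45311587, plus strand: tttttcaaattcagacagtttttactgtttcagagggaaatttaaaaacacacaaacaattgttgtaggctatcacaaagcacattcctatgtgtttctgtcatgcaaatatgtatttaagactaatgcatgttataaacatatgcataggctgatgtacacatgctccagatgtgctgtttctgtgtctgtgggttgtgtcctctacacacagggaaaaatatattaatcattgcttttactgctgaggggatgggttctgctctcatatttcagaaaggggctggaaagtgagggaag
Col4a4, chr1:82586800-82587099, minus strand: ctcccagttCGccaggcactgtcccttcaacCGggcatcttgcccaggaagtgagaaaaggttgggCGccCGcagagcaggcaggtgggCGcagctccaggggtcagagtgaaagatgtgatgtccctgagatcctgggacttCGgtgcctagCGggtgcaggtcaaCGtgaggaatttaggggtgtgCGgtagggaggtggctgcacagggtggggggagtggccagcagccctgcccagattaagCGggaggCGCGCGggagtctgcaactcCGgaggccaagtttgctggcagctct
The Col5a1 window held 34 CG dinucleotides, and 7.73% of all 32851 promoter windows held as many or more. The Col3a1 window held 0, which was so in 5.43% of windows. The Col4a4 window held 14 against a median of 7. TATAAA, searched on both strands, occurred in 1 of the 8 matched members, Col3a1, and in 13.6% of all windows. CCAAT, also searched on both strands, occurred in 1, Col16a1, and in 37.4% of all windows. Col3a1 and Col5a2 are direct neighbours on chromosome 1 in the RefSeq table.

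All 10 collagen genes gave signals in the middle to upper part of the array's range. Over the 6 arrays the lowest mean was that of Col5a2, at 5.17 log2 units, and the highest that of Col5a1, at 7.19, which placed the members between the 60.9 and the 83.7 percentile of all 16383 probe sets. Olfactory receptor genes, which melanocytes are not known to use, served as a gauge of background: 398 of them had a median of 2.76 and a 95th percentile of 4.15. All 10 members lay above that 95th percentile in each of the 6 arrays, as did 59.1% of all probe sets by their mean, so it is a low bar. Still 4 olfactory receptor genes lay above Col5a2. Flg, the keratinocyte gene for filaggrin, averaged 6.81, above 9 of the 10 members. Signals of different probe sets depend on their probes, so the order of the members is not an order of abundance.

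**Figure D1:**
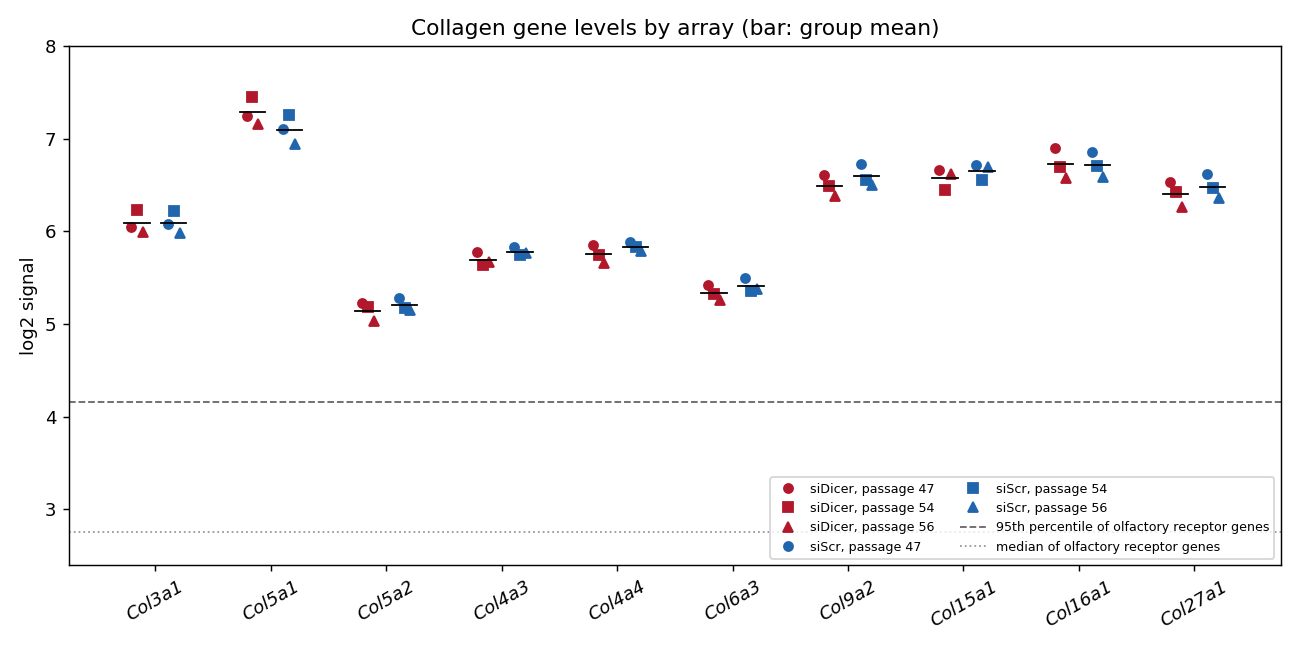
The log2 signal of each collagen gene (vertical axis) is drawn for every array, siDicer in red and siScr in blue, with a symbol for each passage and a bar for each group mean. All points lie above the dashed line at 4.15, the 95th percentile of olfactory receptor genes, and the groups overlap for every gene.

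The labelled cell type was checked against its markers. Of 6 measured melanocyte markers all 6 lay above the olfactory gauge, which 59.1% of all probe sets also passed. Tyrp1, a melanin-synthesis enzyme, averaged 12.85, and the transcription factor Pax3 10.57, while Mreg averaged 6.69 and Rab17 6.01. All 3 measured Schwann cell markers lay above the gauge too, Cdh19 at 8.27, Pmp2 at 7.92 and Sox2 at 5.03. So did 5 of 9 immune, 3 of 9 keratinocyte and 1 of 5 endothelial markers, so a cell type is not singled out by the gauge. Of 7 measured fibroblast markers 4 lay above it. These were S100a4 at 8.55, Twist2 at 5.72, Postn at 5.30 and Dpt at 4.47, while Fap averaged 4.10, Prrx1 3.86 and Cd34 3.82. Postn alone of the 7 was lower on all later arrays than on both passage 47 arrays, a share near the 12.2% of all probe sets. Its passage difference was -0.41 (adjusted p = 0.231 in limma). Of the 7 fibroblast markers 5 had a negative passage difference, while S100a4 and Twist2 were higher at the later passages, by 0.47 and 0.21. The mean log2 signal of the fibroblast list ran from 5.05 to 5.24 in siDicer arrays and from 5.01 to 5.18 in siScr arrays. Of 3 measured chondrocyte markers 3 lay above the gauge, between 4.73 and 6.17. Their list mean ran from 5.36 to 5.52 in siDicer arrays and from 5.45 to 5.60 in siScr arrays. In 2 of the 3 all later arrays lay below both passage 47 arrays, as in 12.2% of all probe sets. The part of other cells in the collagen signals was not tested, and fewer cells of a type and less RNA per cell cannot be told apart in such cultures.

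None of the 10 collagen genes differed between siDicer and siScr cells past the threshold, an adjusted p under 0.05 over all probe sets (limma), either without or with replicate number (passage) as a block. Of all 16383 probe sets 0.214% passed without the block and 0.995% with it. Without the block 0 members had an unadjusted p under 0.05, and with it 1 did, Col5a1, beside 10.2% and 15.7% of all probe sets. The 10 differences, siDicer minus siScr, ran from -0.10 for Col9a2 to 0.19 for Col5a1 with a median of -0.08, beside a median of -0.01 over all probe sets. Their size had a median of 0.08 log2 units, against 0.07 over all probe sets with a single symbol. The lowest bound among the members' 95% intervals without the block corresponded to a 0.813-fold level in siDicer cells and the highest to 1.34-fold. None of these intervals reached a 1.5-fold difference, and a missed threshold does not show equal levels.

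Among the fibril-forming chains, Col5a1 encodes the alpha 1 chain of type V collagen, which co-assembles with type I collagen and sets how thick its fibrils grow. Its log2 signal was 7.25, 7.45 and 7.16 in siDicer cells, against 7.10, 7.25 and 6.94 in siScr cells. The siDicer array was the higher at each passage, by 0.15, 0.19 and 0.22, though the groups overlapped across passages. The difference of 0.19 (SE 0.10, 95% interval -0.04 to 0.42) had an adjusted p of 0.586 in limma. With the block the interval was 0.06 to 0.32 and the unadjusted p 0.0122, but the adjusted p was 0.186. Of all probe sets 17.9% were likewise higher in siDicer in all 3 pairs, and 1 of 10 members is below that share. Col5a2, the alpha 2 chain that joins Col5a1 in the same trimer, had 5.23, 5.18 and 5.03 in siDicer cells, against 5.28, 5.18 and 5.16 in siScr cells. Its difference was -0.06, with a 95% interval from -0.23 to 0.11 (with the block -0.20 to 0.08) and pairs of both signs.

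Col3a1 encodes type III collagen, a homotrimer of stretchable tissues such as skin and vessels. It gave 6.05, 6.23 and 5.99 in siDicer cells, against 6.08, 6.21 and 5.98 in siScr cells. The paired arrays lay within 0.03 log2 units of each other, and the difference was -0.00 (95% interval -0.20 to 0.20; with the block -0.13 to 0.13). Of the 10 members it had the smallest difference. Col27a1, a fibrillar collagen of cartilage, had 6.53, 6.43 and 6.26 in siDicer cells, against 6.62, 6.47 and 6.36 in siScr cells. Its difference was -0.08, with an interval from -0.29 to 0.14 (with the block -0.21 to 0.05).

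Of the basement membrane chains, Col4a3 and Col4a4 encode the alpha 3 and alpha 4 chains of type IV collagen, known for the network of the kidney's glomerular basement membrane. Col4a3 had 5.78, 5.64 and 5.66 in siDicer cells, against 5.83, 5.75 and 5.76 in siScr cells. Col4a4 had 5.86, 5.74 and 5.65 in siDicer cells, against 5.88, 5.83 and 5.78 in siScr cells. For both genes the siDicer array was the lower at each passage, and the groups overlapped. The differences were -0.09 for Col4a3 (95% interval -0.24 to 0.06, adjusted p = 0.692 in limma) and -0.08 for Col4a4 (-0.24 to 0.08, adjusted p = 0.742). With the block the intervals were -0.22 to 0.04 for Col4a3 and -0.21 to 0.06 for Col4a4.

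The remaining members also stayed within a narrow span. Col6a3, the longest chain of the type VI collagen of beaded filaments, had 5.42, 5.32 and 5.26 in siDicer cells, against 5.50, 5.35 and 5.38 in siScr cells, a difference of -0.08. Col9a2, a chain of type IX collagen on the surface of cartilage fibrils, had 6.60, 6.49 and 6.38 in siDicer cells, against 6.73, 6.55 and 6.50 in siScr cells. Its difference of -0.10 was the lowest of the 10 (95% interval -0.30 to 0.09, with the block -0.23 to 0.03). The adjusted p was 0.722 in limma and 0.415 with the block. Col16a1, a fibril-associated collagen, had 6.90, 6.69 and 6.58 in siDicer cells, against 6.85, 6.71 and 6.59 in siScr cells. Its difference was 0.01, with pairs of both signs. Col15a1, the type XV collagen found beside basement membranes, had 6.66, 6.45 and 6.62 in siDicer cells, against 6.71, 6.55 and 6.69 in siScr cells, a difference of -0.08.

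The members Col4a3, Col4a4, Col6a3, Col9a2, Col15a1 and Col27a1 were lower in siDicer in all 3 pairs, 6 of 10 beside 22.6% of all probe sets. The pair differences of these 6 genes were between -0.13 and -0.02. In none of the 10 did the 3 siDicer values stand clear of the 3 siScr values, which happened for 15.9% of probe sets. Single arrays stood out alongside: siScr replicate 1 was the highest array for 7 of the 10 members and for 23.8% of all probe sets, and siDicer replicate 3 the lowest for 6 of 10 and for 24.5%. The mean of the 10 members was 6.23, 6.16 and 6.06 in siDicer arrays, against 6.26, 6.18 and 6.11 in siScr arrays. Over 20 alternative settings, among them fits without each array in turn, the members' median difference ran from -0.12 to -0.02.

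**Figure D2:**
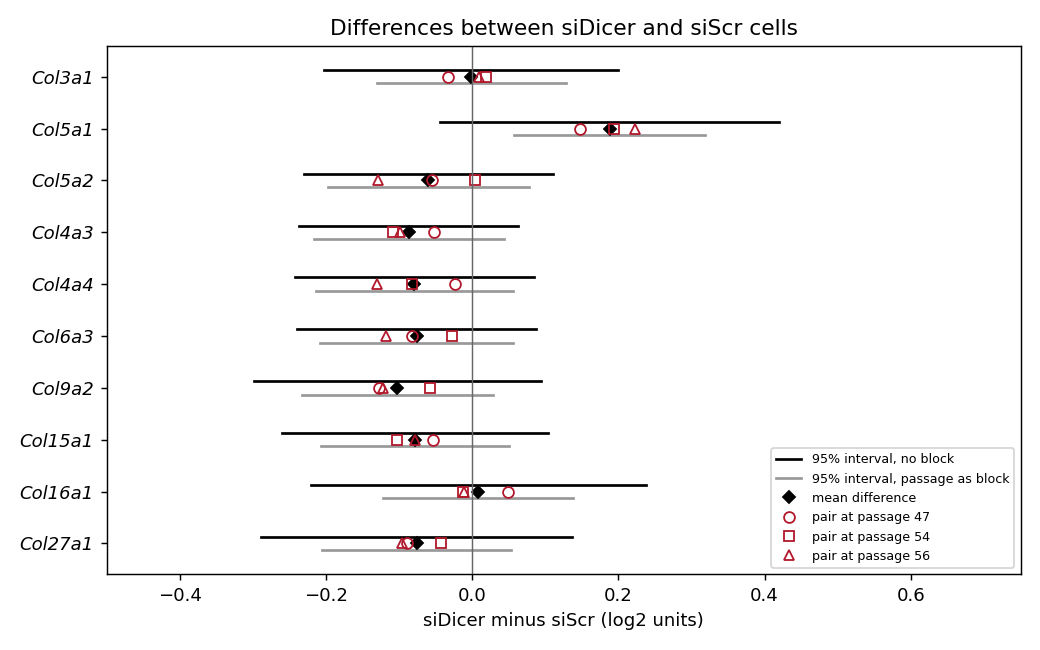
Differences in log2 signal, siDicer minus siScr, for each collagen gene: open symbols are the 3 pairs of equal passage, diamonds their mean, black bars the 95% interval without the block and grey bars with passage as a block. The grey bar of Col5a1, 0.06 to 0.32, lies clear of 0, but its adjusted p was 0.186.

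Most of the collagen genes had their highest signals at passage 47. In 7 of the 10 members (Col5a2, Col4a3, Col4a4, Col6a3, Col9a2, Col16a1 and Col27a1) all 4 arrays of passages 54 and 56 lay below both arrays of passage 47. Over all probe sets 12.2% did so, and 14.8% of the 3742 probe sets in the members' range of mean levels. In limma with the siRNA group as covariate, 0 of 10 members passed the threshold for later against passage 47, as against 0.0061% of probe sets, a single one. Without adjustment 3 members and 12.3% of all probe sets had p under 0.05. The 10 log2 differences had a median of -0.12, beside -0.01 over all probe sets.

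Col16a1 had the lowest passage difference, with 6.88, 6.70 and 6.58 log2 units at passages 47, 54 and 56 (means of 2 arrays). The later passages differed from passage 47 by -0.23 (95% interval -0.40 to -0.07, adjusted p = 0.297 in limma). In the same order Col27a1 averaged 6.57, 6.45 and 6.31 and Col9a2 6.67, 6.52 and 6.44. Their differences were -0.19 and -0.18, with adjusted p of 0.362 and 0.332 in limma. Col5a1 and Col3a1 had another profile, being highest at passage 54 in both groups. Col5a1 averaged 7.17, 7.35 and 7.05 at passages 47, 54 and 56, and Col3a1 6.07, 6.22 and 5.99. Without the passage 54 arrays their later-minus-47 differences turned negative, to -0.12 for Col5a1 and -0.079 for Col3a1. Col15a1 was lowest at passage 54, with 6.69, 6.50 and 6.65. Each passage was measured on 2 arrays, and passage cannot be told apart from anything else that differed between the cultures. The passage fit counted those 2 arrays as separate replicates, though arrays of the same passage were correlated. Its intervals and p-values, adjusted or not, may therefore overstate the precision.

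**Figure D3:**
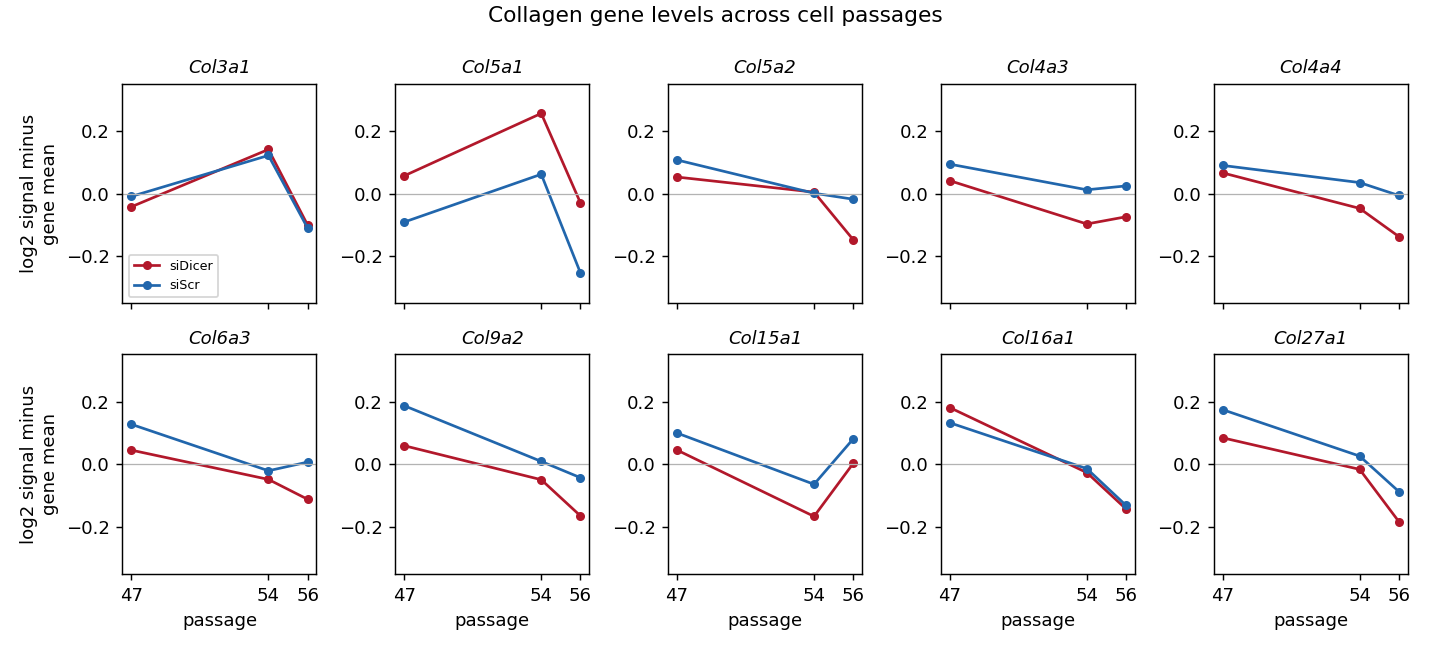
Each panel gives 1 collagen gene, as log2 signal minus the gene's mean over 6 arrays, against cell passage, with siDicer in red and siScr in blue. Col3a1 and Col5a1 peak at passage 54 in both groups, while 7 genes are highest at passage 47 and lower on all 4 later arrays.

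Across the 6 arrays, Col3a1 and Col5a1 had a Pearson r of 0.79 with each other, while their 16 correlations with the other 8 members ran from -0.86 to 0.35. Col15a1 stood apart from both sets, with r from 0.23 to 0.78 with the other 7 and the lowest values with Col3a1 and Col5a1. The 21 correlations among those 7 ran from 0.62 to 0.97 with a median of 0.90. Among them were the neighbours Col4a3 and Col4a4, with r = 0.87, and the pair Col6a3 and Col9a2 on different chromosomes, with r = 0.97. Col3a1 and its neighbour Col5a2 had r = 0.31. The type V partners Col5a1 and Col5a2 had r = 0.05. These values describe 6 arrays that share passages and array level, and the grouping was noticed in these same data.

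The members with the largest SD over 6 arrays were Col5a1 (0.17), Col16a1 (0.13) and Col27a1 (0.13), while the median SD was 0.10 for the 10 members and 0.11 for probe sets in their range of levels. Among 5204 genes above the olfactory gauge, those running most like Col5a1 were Dnajb5, Coro2a and Zfp345, with r of 0.996, 0.988 and 0.984. For Col16a1 they were Gm9054, Prss56 and Dmrta2os, and for Col27a1 Pla2g5, Padi6 and Dcdc2b, with r of at least 0.984. These too are descriptions of 6 arrays, picked as the highest of 5204 values each.

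The 8 other collagen genes measured, of 34 listed, resembled the members. These were Col8a2, Col9a1, Col9a3, Col11a1, Col19a1, Col20a1, Col24a1 and Col25a1, and all 8 lay above the olfactory gauge, from 4.74 for Col19a1 to 6.38 for Col8a2. None passed for siDicer against siScr in limma and 0 had an unadjusted p under 0.05, beside 0.214% and 10.2% of all probe sets. Their differences ran from -0.06 to 0.08 with a median of -0.03. Col19a1 and Col25a1, with the smallest p of the list, were each lower by 0.06 (adjusted p = 0.793 and 0.791 in limma). In all 8 the 4 later arrays lay below both passage 47 arrays, as in 12.2% of all probe sets. Their passage differences ran from -0.32 for Col9a1 to -0.09 for Col8a2, with 0 past the threshold, beside 0.0061% of all probe sets. Without adjustment 4 of the 8 had p under 0.05 in limma, beside 12.3% of all probe sets. Col9a1 and Col9a3, which form type IX collagen with Col9a2, thus ran the same way with passage as Col9a2 did, by -0.32 and -0.15 against its -0.18.

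Some of the genes listed for collagen modification and secretion had higher signals in siDicer cells. Of 9 measured genes of that list 1 rose in siDicer cells without the block, Fkbp7, and 3 rose with it, beside 0.146% and 0.757% of all probe sets. The list had a median difference of 0.16. In it 6 genes were higher in siDicer in all 3 pairs and 2 lower in all 3, beside 17.9% and 22.6% of all probe sets. Fkbp7, a peptidyl-prolyl isomerase that resides in the endoplasmic reticulum, had 6.72, 6.82 and 6.84 in siDicer cells, against 6.14, 6.29 and 5.94 in siScr cells. The groups did not overlap, and its difference was 0.68 ± 0.09 (SE, adjusted p = 0.035 in limma and 0.0337 with the block). Leaving out 1 array at a time, Fkbp7 passed in 1 of 6 fits (adjusted p from 0.04 to 0.202), and it missed the threshold with the block after quantile normalization (adjusted p = 0.0507).

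P3h1, the prolyl 3-hydroxylase that modifies fibrillar collagen chains, had 7.75, 7.53 and 7.64 in siDicer cells, against 7.22, 7.16 and 7.10 in siScr cells. P3h1 rose by 0.48 with the block (adjusted p = 0.0371 in limma), while without it the adjusted p was 0.0584. Tmem38b, an ion channel of the endoplasmic reticulum whose loss in human causes a brittle-bone disease, had 6.31, 6.50 and 6.31 in siDicer cells, against 5.90, 6.04 and 5.96 in siScr cells. Its difference was 0.41 (adjusted p = 0.0419 with and 0.0944 without the block). Sec24d, a subunit of the COPII coat that carries procollagen out of the endoplasmic reticulum, differed by 0.34 and missed the threshold with the block (adjusted p = 0.0503). With the block and a pair left out, P3h1 and Tmem38b passed in 0 of 3 fits each and Fkbp7 in 1. With the block after quantile normalization P3h1 and Tmem38b missed it too (adjusted p = 0.0513 and 0.0542 in limma).

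Receptors and matrix partners were described by the same counts. Of 3 measured genes listed as collagen receptors 1 rose without and with the block, beside 0.146% and 0.757% of all probe sets. It was Itgav, an integrin subunit that binds chiefly vitronectin and fibronectin. Itgav averaged 9.87 in siDicer cells, against 9.16 in siScr cells (adjusted p = 0.0265 in limma). Leaving out 1 array at a time, Itgav passed in 1 of 6 fits (adjusted p from 0.0373 to 0.158). The collagen-binding integrin subunit Itga10 differed by 0.07 and the collagen receptor kinase Ddr2 by 0.01, neither past the threshold. Ddr2 stood at 5.86, 6.92 and 6.39 in siDicer cells, against 5.85, 6.97 and 6.31 in siScr cells, highest at passage 54 in both groups (later against passage 47, adjusted p = 0.256 in limma). Of 19 fibril and basement membrane partners 0 passed without the block (lowest adjusted p = 0.0773 in limma, 7 of 19 with an unadjusted p under 0.05, beside 10.2% of all probe sets). With the block 5 of the 19 rose, beside 0.757% of all probe sets. These were Lamc1 and Lama5, laminin chains, Npnt, an integrin ligand, Thbs1, thrombospondin, and Prelp, a proteoglycan that binds collagen. Their differences ran from 0.45 to 0.56, and the list's median was 0.11. With a pair left out, Lama5 passed in 0 of 3 blocked fits and each of the other 4 in 1. With the block after quantile normalization Lamc1 and Lama5 missed the threshold (adjusted p = 0.0531 and 0.0633). Of the 19 partners 10 were higher in siDicer in all 3 pairs and 5 lower in all 3, beside 17.9% and 22.6% of all probe sets. Among the 5 was Tnc, the matrix glycoprotein tenascin C. Tnc had 5.53, 5.92 and 5.52 in siDicer cells, against 5.99, 6.51 and 5.78 in siScr cells, a difference of -0.44 (adjusted p = 0.477 in limma and 0.066 with the block).

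Genes for breakdown, uptake, processing and crosslinking of collagen were counted in the same way. Of 7 genes for degradation and uptake 0 passed without the block, where 1 had an unadjusted p under 0.05, beside 10.2% of all probe sets. With the block 1 rose in limma, beside 0.757% of all probe sets. It was Reck, a membrane inhibitor of metalloproteinases (difference 0.41, adjusted p = 0.0449). Mmp16, a membrane metalloproteinase, differed by 0.20 (adjusted p = 0.173 with the block). Of the 2 genes measured for processing and crosslinking, Tgm2, a transglutaminase, differed by 0.18 and Fap by -0.04, neither past the threshold. Of the marker lists, with the block 1 of 7 fibroblast markers rose, S100a4 (difference 0.38), and 1 of 6 melanocyte markers, the pigment gene Mreg (0.62). Of 3 Schwann cell markers Cdh19 rose (0.55) and Pmp2 fell by 0.95. All these calls were in limma, beside 0.995% of all probe sets with the block, and none of these genes passed without it. In blocked fits with a pair left out, S100a4 passed in 0 of 3 and Mreg, Cdh19 and Pmp2 in 1 each, and Reck in 0. With the block after quantile normalization Reck, S100a4 and Mreg missed the threshold (adjusted p = 0.068, 0.0598 and 0.0682 in limma). Measured keratinocyte (9), endothelial (5), immune (9) and chondrocyte (3) markers had 0 past the threshold in either limma fit. Of all probe sets 0.214% passed without the block and 0.995% with it. Without the block 2 of them, both immune, had an unadjusted p under 0.05, beside 10.2% of all probe sets. In these last lists Sprr1b, Hrnr, Tie1, Selp, Fcer1g, C1qa, Matn1 and Ucma had the smallest p, with differences between -0.29 and 0.17, and in the fibroblast and melanocyte lists Prrx1 and Mlph differed by -0.11 and -0.12.

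**Figure D4:**
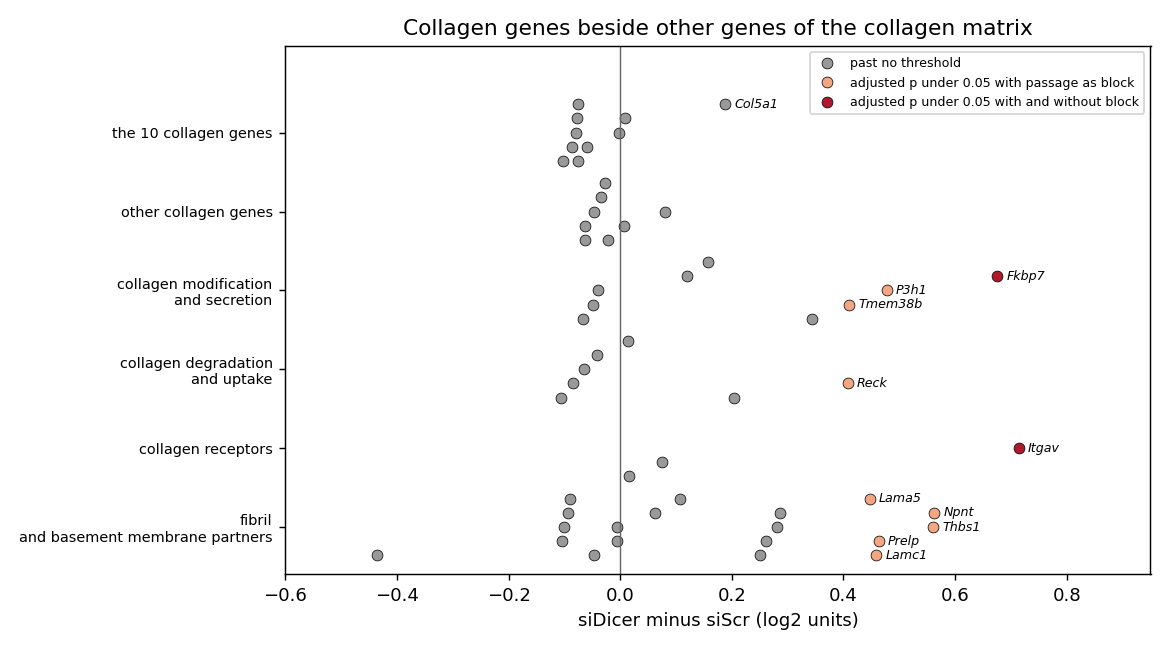
Each point is 1 gene's difference in log2 signal, siDicer minus siScr, in 6 gene lists (vertical position within a list has no meaning). The 10 collagen genes lie between -0.10 and 0.19 and are all grey, past no threshold, while Fkbp7 and Itgav are past it in both fits and 8 genes of the other lists only with passage as a block.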

How the data were processed

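RNA from 3 siDicer and 3 siScr cultures was measured on Clariom D arrays. What the authors deposited is a log2 signal for each probe set. Affymetrix Expression Console is the tool named, per the submitters' processing notes. For background correction, normalization and genome build no statement was found in the labels or headers. Array medians lay between 4.58 and 4.64. No value was changed before the first-reported fits. Normalization that equalises arrays hides changes shared by most transcripts, and the number of arrays limits the precision.

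Of 16383 probe sets 7530 had a single platform symbol, 455 several and 8398 none. Symbols of 230 were updated through Entrez numbers. Chromosomes 1 to 4 hold 7439 of the named ones, so genes elsewhere are mostly not analysed here. Where a gene had several rows the one of highest mean was used.

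Differences were fitted over all probe sets with limma 3.58.1 in R 4.3.3 (lmFit, eBayes without trend), with Benjamini-Hochberg adjustment. Passages 54 and 56 were set against 47 with the siRNA group as covariate, the 2 arrays of a passage counting as separate replicates. Replicate numbers mark the passage in the labels. Deviations from group means correlated across probe sets between same-numbered arrays (r of 0.44, 0.41 and 0.24). The numbers were therefore taken as pairs for the pair differences and the fit with the block. Intervals and p-values given without mention of the block are unpaired. The labels do not say how the cultures were otherwise separate, so p-values measure the spread between these samples, which may be partly technical. The procedure was tested on simulated data whose noise was independent between arrays. That test does not cover arrays correlated within a passage, as these were. Genes named are the 10 members, the genes of each list past the threshold in a fit or with the 2 smallest p, and the 3 genes most correlated with each of the 3 most variable members. Ddr2, Sec24d, Tnc, Twist2, Postn, Dpt, Flg, Tyrp1, Pax3, Rab17, Sox2, Cd34, Col8a2, Col9a1, Col9a3, Col11a1, Col20a1 and Col24a1 were named after their values were seen. The members and lists were chosen with earlier results of these data known.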

Additional observations from a re-analysis of the deposited data

How the results depend on the processing

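No collagen gene passed the threshold under any of the 20 alternatives for siDicer against siScr or the 18 for passage, and all 10 stayed above the olfactory gauge under its 12 alternatives. The members' median difference kept its sign throughout, from -0.12 to -0.02 for siDicer and from -0.14 to -0.09 for passage. Col5a1 was higher in siDicer in all 20, by 0.11 to 0.27, with an adjusted p of 0.186 at the lowest. The signs that turned belong to genes past no threshold. For siDicer, Col3a1 turned to 0.014 with the replicate block and without replicate 1, and to 0.013 with arrays centred on their median. It ran from -0.072 to 0.059 without 1 array. Col16a1 turned to -0.025 after quantile normalization, with and without the replicate block, to -0.012 with the block and without replicate 1, and to -0.0033 after cyclic loess. It ran from -0.080 to 0.081 without 1 array. Tgm2 ran from -0.010 to 0.397 without 1 array, and Sprr1b turned to -0.0069 with the block and without replicate 2. For passage, Col5a1 turned to -0.035 after quantile normalization and -0.0071 after cyclic loess. With all arrays of a later passage left out, Col5a1 ran from -0.124 to 0.176 and Col3a1 from -0.079 to 0.157, both lowest without passage 54.

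Counts over all probe sets moved more. For siDicer 35 passed, 163 with the replicate block, 84 with the block after quantile normalization (where 8 of the 14 list genes named as past the threshold with the block missed it), and with the block and a pair left out 157 without replicate 1 and 0 without replicate 2 or 3. There were 69 among probe sets with a single symbol, 99 at an adjusted p under 0.1 and 19 with at least 1.5-fold. Leaving out 1 array gave 0 to 20. For passage 1 passed, 27 at an adjusted p under 0.1, 19 without replicate 2, 111 without replicate 3 and 0 to 17 without 1 array. Itgav passed in 1 of 6 fits without 1 array (adjusted p from 0.0373 to 0.158). The replicate block changed no call among the collagen genes, and causes were not tested.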
